A study of Mus musculus with 24 samples.

Results

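Cyclic nucleotide phosphodiesterases of the mouse adrenal gland were described from all probe sets whose gene symbol in the platform's annotation is Pde8a, Pde8b, Pde2a, Pde4a, Pde4b, Pde4d, Pde7a or Pde10a. These were 28 of the 45101 probe sets on the array, for 8 of 18194 genes with a symbol, and all 8 were found in the RefSeq gene table by their gene identifiers. Of the 28 probe sets, 19 had a mean signal of at least 189, the 40th percentile of all probe sets, and were tested, with at least 1 for each gene. Pde7a had 5 tested probe sets of 7, Pde2a 3 of 3, Pde10a 3 of 5, Pde8a 2 of 2, Pde8b 2 of 2, Pde4b 2 of 6, Pde4d 1 of 2 and Pde4a 1 of 1. The dimmest tested one, 1438041_at of Pde7a, had a mean signal of 194, and the brightest untested one, 1458499_at of Pde10a, a mean of 175.

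Whole adrenals, cortex and medulla together, were taken from 3-month-old male C57B/6J mice that carried no genetic change named in the labels. The mice were entrained for 2 weeks to 12 h of light and 12 h of darkness and killed in constant darkness, at 4 h steps between 38 and 82 h after the last lights off, and each of the 12 time points has 2 arrays, for 24 in total. Hours after lights off minus 12, modulo 24, gave projected circadian times (CT) 2, 6, 10, 14, 18 and 22, with CT 0 at the hour when light would have returned. Whether the arrays of 1 time point stand for different animals is not in the labels, and p-values here cover the spread among samples only, which may be technical.

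Phosphodiesterases break down the second messengers cAMP and cGMP and so set how long and how far a hormone signal lasts in a cell. In the adrenal cortex the pituitary hormone ACTH acts through its receptor, adenylyl cyclase, cAMP and protein kinase A to drive the synthesis of steroid hormones, and phosphodiesterases oppose that signal. PDE8B and PDE8A bind cAMP with high affinity, and loss of PDE8B in mice raises adrenal steroid output. PDE2A, which cGMP activates and which cleaves both messengers, is abundant in the outer cortex, where aldosterone is made.

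Promoters are shown for the Pde8 genes, on which the results below turn. The RefSeq promoter table for GRCm38.p6 gives windows of 250 bases before and 50 after a transcription start. It holds 1 window for Pde8a, 5 for Pde8b, 5 for Pde2a, 4 for Pde4b, 3 for Pde4a, 2 for Pde10a and 1 for Pde4d. Capitals mark the cAMP response element half-site TGACG, the letters to which factors of the CREB family bind. Pde8a spans chr7:81213265-81334535, and its window is chr7:81213015-81213314 on the plus strand.

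Pde8a: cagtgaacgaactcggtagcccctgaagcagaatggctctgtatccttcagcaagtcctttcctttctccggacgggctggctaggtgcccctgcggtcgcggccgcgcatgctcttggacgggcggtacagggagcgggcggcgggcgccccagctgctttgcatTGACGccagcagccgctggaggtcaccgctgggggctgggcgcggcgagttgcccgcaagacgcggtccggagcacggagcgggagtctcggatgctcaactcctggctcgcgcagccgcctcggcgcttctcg

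Pde8b spans chr13:95024105-95250401 on the minus strand. Of its windows, chr13:95250287-95250586 held no searched motif, and chr13:95223001-95223300 held 1 half-site. Both are given along the minus strand.

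Pde8b distal window: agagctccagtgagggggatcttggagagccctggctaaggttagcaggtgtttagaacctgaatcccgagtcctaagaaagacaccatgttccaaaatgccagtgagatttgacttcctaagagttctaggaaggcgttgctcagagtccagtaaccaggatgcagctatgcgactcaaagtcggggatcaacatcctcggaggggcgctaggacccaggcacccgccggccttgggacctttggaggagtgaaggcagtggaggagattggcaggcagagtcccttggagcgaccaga

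Pde8b internal window: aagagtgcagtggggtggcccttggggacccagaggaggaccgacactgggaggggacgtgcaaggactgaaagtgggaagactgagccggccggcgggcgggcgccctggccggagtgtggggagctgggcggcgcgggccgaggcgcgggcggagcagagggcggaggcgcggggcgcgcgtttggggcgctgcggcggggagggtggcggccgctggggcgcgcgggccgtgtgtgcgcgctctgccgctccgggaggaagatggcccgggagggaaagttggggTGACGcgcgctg

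The half-site lay 84 bases before the start in Pde8a and 38 bases after the start in the internal window of Pde8b. Searched on both strands, it was also present in 1 window each of Pde2a, Pde4a and Pde4b, and in 20.8% of all 32851 windows of this length. No window of these genes held the E-box CACGTG (7.15% of all windows), the full response element TGACGTCA (1.79%, and it contains the half-site), the SF-1 site CAAGGTCA (1.56%) or the D-box TTATGTAA (0.938%). A match describes only these letters.

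Libraries were compared before any test. In 6 pairs of arrays of 1 circadian time the SD of the log2 ratio was 0.0418 or less, against 0.217 to 0.516 in the 30 other such pairs. Where both arrays of a near-copy pair read 50 or more, the ratio between them lay between 0.95 and 1.053 for all probe sets, against extremes of 0.0157 and 70.5 in the other pairs. Of the 6 pairs, 5 join arrays labelled with time points 24 h apart, so which cycle each of these 5 profiles stands for cannot be told, while circadian time is the same under either label. Each near-copy pair differed by less than any other pair of the same circadian time and entered as a single averaged sample, so that 18 profiles remained, with 3 per circadian time. The 8 arrays of CT 10 and 18 stood apart: the bacterial control probe set ThrX-3 read 513 to 1858 on them and 56.3 to 101 on the other 16. They are called the second array set (6 profiles), and the arrays of CT 2, 6, 14 and 22 the first (12 profiles). The Gapdh probe sets' 5' over 3' ratio, which falls with RNA degradation, was 0.0386 to 0.978 in the second set and 1.03 to 1.15 in the first, and the lowest value belonged to 78h replicate 2 at CT 18. Summed marker signals of other tissues also differed: 5 muscle markers gave 676 to 24048 in the second set and 542 to 812 in the first, and 3 liver markers gave 1060 to 13605 in the second set and 384 to 1705 in the first. The 6 markers of adrenal cortex, which define the labelled tissue, summed to 52277 to 57708 in the second set and 55583 to 59708 in the first, with none at 0 on any array. Of all 27022 tested probe sets, 47.9% differed between the array sets beside a 24 h rhythm in limma, and 7 of the 19 phosphodiesterase probe sets did, 1 higher and 6 lower in the second set. Array set and the circadian times 10 and 18 cannot be told apart. Each rhythm was therefore fitted over all 18 profiles, with the array set as a block, and within the first set alone.

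Rhythm was tested in limma as a 24 h cosine and sine on log2(signal + 51), with Benjamini-Hochberg adjustment over all 27022 probe sets and a threshold of 0.05. Over 18 profiles, 4 of the 19 phosphodiesterase probe sets passed, against 10% of all probe sets. They were both probe sets of Pde8b, 1 of Pde8a and 1 of Pde7a. With the array set as a block 5 of 19 passed, against 16.0% of all, the fifth being a second probe set of Pde7a. Within the first array set 6 of 19 passed, against 10.1% of all, the sixth being 1 of Pde2a. The median amplitude, from fitted mean to peak, was 0.15 log2 units for the 19 and 0.12 for all probe sets over 18 profiles, 0.16 and 0.10 with the block, and 0.16 and 0.09 within the first set. The plot of amplitudes shows the 3 fits side by side.

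**Figure D1:**
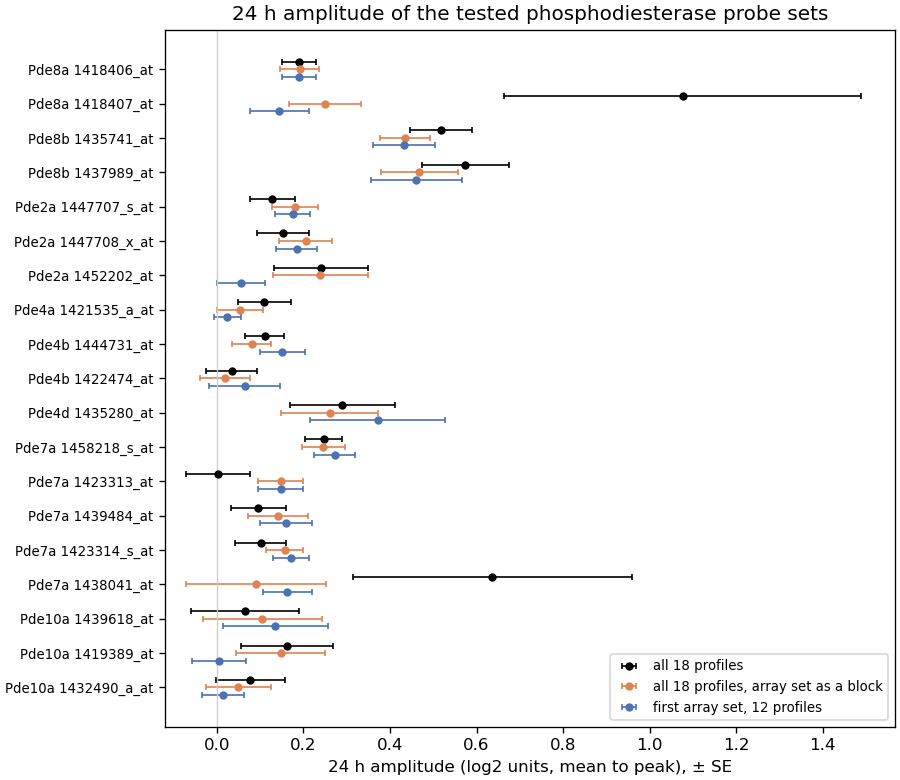
24 h amplitude (log2 units, fitted mean to peak) of each of the 19 tested phosphodiesterase probe sets, with its SE, over all 18 profiles, with the array set as a block, and within the 12 profiles of the first array set. Both Pde8b probe sets kept amplitudes between 0.43 and 0.57 in the 3 fits. By contrast, 1418407_at of Pde8a had 1.08 over all profiles and 0.14 within the first set, where its signal was dim.

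Pde8b, the high-affinity cAMP-specific phosphodiesterase best known from adrenal and thyroid, had the rhythm of lowest p among the phosphodiesterase probe sets in each of the 3 fits. Probe set 1435741_at read 1850, 1869 and 1878 at CT 2, and 1071, 1369 and 1412 at CT 6. It read 790, 801 and 888 at CT 10, and 988, 1200 and 1374 at CT 14. It read 1068, 1246 and 1409 at CT 18, and 1582, 1955 and 2136 at CT 22. The signal was thus high around the return of projected light and low at the end of the projected day, and no profile of CT 10 reached any profile of another time. The fitted amplitude was 0.52 ± 0.07 (SE) with a peak at CT 23.5, a peak-to-trough ratio of 2.05 and an adjusted p of 0.00079 in limma. With the array set as a block the amplitude was 0.43 ± 0.06, with a peak at CT 22.9 and an adjusted p of 0.0003. Within the first set alone it was 0.43 ± 0.07 with an adjusted p of 0.0061.

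The circadian times fell in the order 22, 2, 6, 18, 14 and 10 by mean level of 1435741_at. CT 22 and 2 overlapped, as did CT 6, 18 and 14. The steps between these groups did not overlap: CT 2 lay 0.53 above CT 6, and CT 14 lay 0.49 above CT 10, with pooled SDs of 0.15 and 0.17 log2 units. The last step crosses both array sets, in which the term for the second set was -0.34 ± 0.09 for this probe set (adjusted p = 0.0063).

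The other Pde8b probe set, 1437989_at, followed the same course. It read 1138 to 1312 at CT 2, 647 to 935 at CT 6, 458 to 507 at CT 10, 580 to 922 at CT 14, 615 to 1042 at CT 18 and 895 to 1597 at CT 22. Its spread within a circadian time was wider, and CT 22 overlapped with CT 6, 14 and 18. Its amplitude was 0.57 ± 0.10 with a peak at CT 23.6 (adjusted p = 0.0048), and the blocked fit gave 0.47 ± 0.09 (adjusted p = 0.0051). Within the first set it was 0.46 ± 0.10 (adjusted p = 0.032), a call that held in 4 of the 12 fits that left out 1 profile of that set. After subtracting the mean of each array set, the correlation between both Pde8b probe sets over 18 profiles was 0.97, as a description of probe sets that share transcript and arrays.

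**Figure D2:**
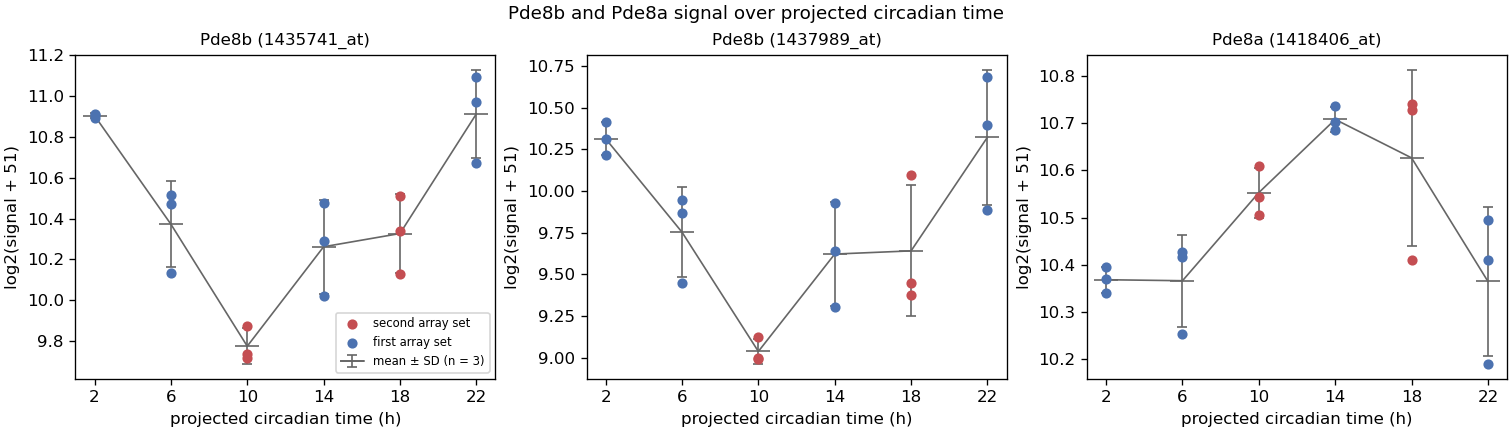
Signal of both Pde8b probe sets and of Pde8a probe set 1418406_at, as log2(signal + 51), by projected circadian time in hours. Points are profiles, coloured by array set, and bars give the mean ± SD of 3 profiles. Pde8b 1435741_at was lowest at CT 10 and highest at CT 22 and 2, while Pde8a was highest at CT 14.

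Pde8a encodes the close relative of PDE8B, also specific for cAMP. Its probe set 1418406_at read 1245, 1271 and 1296 at CT 2, and 1169, 1316 and 1326 at CT 6. It read 1402, 1441 and 1512 at CT 10, and 1595, 1617 and 1655 at CT 14. It read 1310, 1644 and 1662 at CT 18, and 1116, 1309 and 1391 at CT 22. The 3 profiles of CT 14 lay above all those of CT 2, 6, 10 and 22, and CT 18 held 1 low and 2 high profiles. The amplitude was 0.19 ± 0.04 with a peak at CT 14.4, a peak-to-trough ratio of 1.30 and an adjusted p of 0.013. With the block it was 0.19 ± 0.04 (adjusted p = 0.018), and within the first set 0.19 ± 0.04 (adjusted p = 0.020). The blocked call was lost without the averaged profile of 50h replicate 1 with 74h replicate 2 (adjusted p = 0.075), without 50h replicate 2 (0.065) and without 74h replicate 1 (0.056), the 3 profiles of CT 14. Within the first set leaving out the same profiles also lost it (adjusted p = 0.086, 0.081 and 0.066). The fitted peaks of Pde8a and Pde8b lay at CT 14.4 and 23.5, and this difference in time was not tested. Over 18 profiles, after subtraction of array set means, the correlation of 1418406_at with 1435741_at was -0.30, and it was -0.59 over the 12 profiles of the first set.

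Pde7a encodes a phosphodiesterase specific for cAMP and known from lymphocytes. Its probe set 1458218_s_at read 270, 284 and 327 at CT 2, and 292, 300 and 305 at CT 6. It read 394, 411 and 431 at CT 10, and 374, 439 and 491 at CT 14. It read 358, 380 and 392 at CT 18, and 323, 339 and 399 at CT 22. All 3 profiles of CT 10, 14 and 18 lay above all those of CT 2 and 6. The amplitude was 0.25 ± 0.04 with a peak at CT 14.4 (adjusted p = 0.0045), 0.25 ± 0.05 with the block (adjusted p = 0.0078), and 0.27 ± 0.05 within the first set (adjusted p = 0.0087). The blocked call was lost without 50h replicate 2 (adjusted p = 0.054). Its correlation with Pde8a 1418406_at over 18 profiles, after subtraction of array set means, was 0.65.

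None of the other 4 tested Pde7a probe sets passed over 18 profiles. Probe set 1423314_s_at had an amplitude of 0.10 ± 0.06 over 18 profiles (adjusted p = 0.41), 0.16 ± 0.04 with the block and a peak at CT 16.6 (adjusted p = 0.042), and 0.17 ± 0.04 within the first set (adjusted p = 0.043). It was called with the block in 5 of 18 fits that left out 1 profile. Within the first set the call was lost in most of the 12 such fits, with an adjusted p of up to 0.11. Over 18 profiles 1423313_at and 1439484_at had amplitudes of 0.002 ± 0.07 and 0.10 ± 0.06 (adjusted p = 0.9997 and 0.50). With the block they were 0.15 ± 0.05 and 0.14 ± 0.07, with peaks at CT 14 and 13.7 (adjusted p = 0.13 and 0.34). Probe set 1423313_at read 323 to 350 at CT 2, 263 to 297 at CT 10 and 255 to 321 at CT 18. It was thus lower, without overlap, at CT 10 and 18, the times of the second array set, than at CT 2. By contrast, 1458218_s_at was higher at CT 10 and 18 than at CT 2. Probe set 1438041_at, the Pde7a probe set with the largest difference between array sets, had 0.64 ± 0.32 over 18 profiles (adjusted p = 0.33), 0.09 ± 0.16 with the block (adjusted p = 0.92) and 0.16 ± 0.06 within the first set (adjusted p = 0.17). The suffix _s marks probe sets that can match transcripts of more than 1 gene or variant, and what each Pde7a probe set matches was not analysed here.

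Of the 5 chromaffin cell markers of the medulla, 1 changed over the times at which Pde8a and Pde7a did. Pnmt, the enzyme that makes adrenaline, passed the 24 h test, with an amplitude of 0.66 ± 0.14 and a peak at CT 17.6 (adjusted p = 0.017), and was higher at CT 14 than at CT 2 by 1.37 ± 0.14 (adjusted p = 0.00043). The CT 14 minus CT 2 difference was 0.23 ± 0.11 for Th, 0.05 ± 0.10 for Dbh, 0.03 ± 0.04 for Chga and -0.05 ± 0.03 for Chgb, and none of these 4 was called (adjusted p = 0.27, 0.84, 0.71 and 0.36). The 5 markers summed to 37650 to 41578 at CT 14 and 32799 to 34291 at CT 2, with none at 0. The part of the medulla in the Pde8a and Pde7a results was not tested. In whole glands, fewer cells of a type and less RNA per cell cannot be told apart. The cortex markers summed to 56818 to 58732 at CT 14 and 56483 to 58722 at CT 2. Among them Nr5a1 was higher at CT 14 than at CT 2 by 0.55 ± 0.14 (adjusted p = 0.037). Mc2r was lower, at -0.35 ± 0.08 (adjusted p = 0.021), and the other cortex markers were not called.

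Pde2a encodes the phosphodiesterase that cGMP activates. Probe set 1447707_s_at read 4189, 4713 and 5101 at CT 2, and 4072, 4411 and 4453 at CT 6. It read 3942, 4534 and 5320 at CT 10, and 3352, 3636 and 3870 at CT 14. It read 3459, 4416 and 4450 at CT 18, and 3855, 4266 and 4788 at CT 22. CT 14 was low, without overlap with CT 2, 6 and 10, and neighbouring times in the order of means overlapped throughout. The amplitude was 0.13 ± 0.05 over 18 profiles (adjusted p = 0.21), 0.18 ± 0.05 with the block (adjusted p = 0.061), and 0.18 ± 0.04 within the first set with a peak at CT 2.1 (adjusted p = 0.036). The last call held in 6 of 12 fits that left out 1 profile. Probe set 1447708_x_at gave 0.15 ± 0.06, 0.21 ± 0.06 and 0.18 ± 0.05 (adjusted p = 0.20, 0.066 and 0.065). After subtraction of array set means it correlated with 1447707_s_at at 0.97 over 18 profiles, as a description of probe sets on the same arrays.

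The third Pde2a probe set, 1452202_at, had an amplitude of 0.24 ± 0.11 over 18 profiles (adjusted p = 0.26) and 0.06 ± 0.06 within the first set (adjusted p = 0.77). It read 727 in 78h replicate 2, the array with the lowest Gapdh ratio, and 1571 to 2704 in the other 17 profiles. The 3 markers of zona glomerulosa, the outer layer of the cortex, summed to 10749 to 11488 at CT 14 and 9898 to 10812 at CT 2. Among them Dab2 was higher at CT 14 than at CT 2 by 0.27 ± 0.07 (adjusted p = 0.035). Cyp11b2 and Agtr1b were not called (adjusted p = 0.94 and 0.91). Endothelium markers, another possible source of Pde2a transcript, summed to 4801 to 5305 at CT 14 and 4907 to 5697 at CT 2, with none at 0. Their part in the Pde2a result was not tested.

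**Figure D3:**
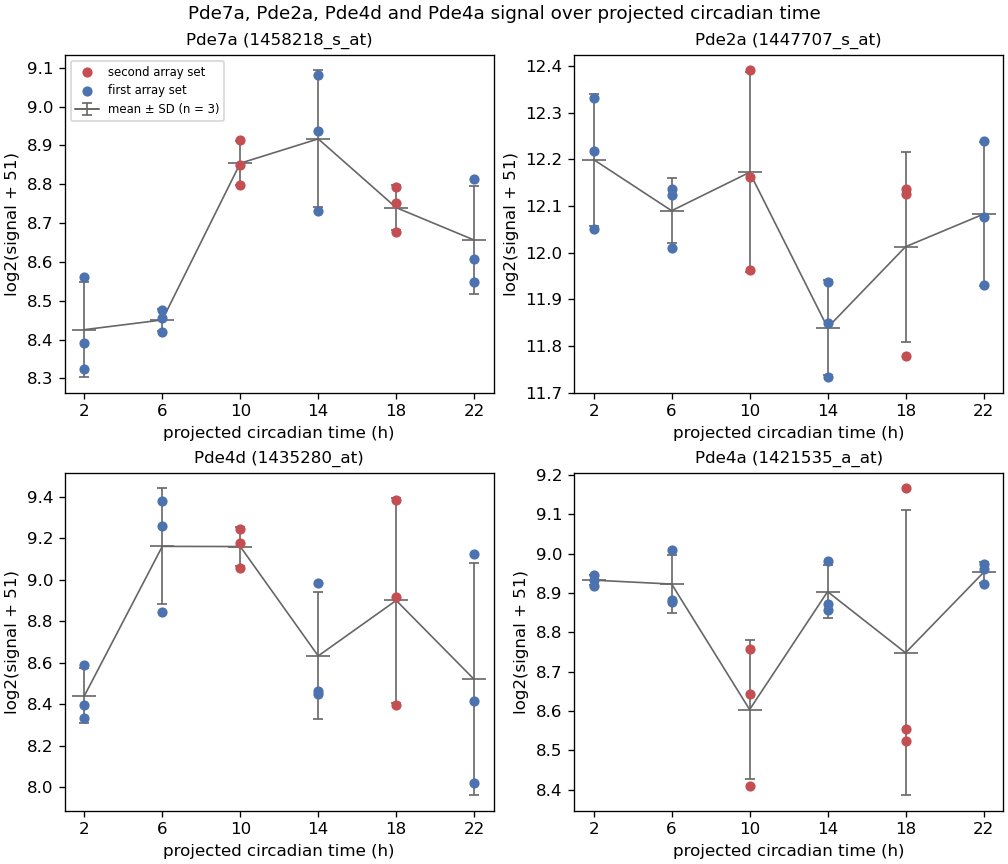
Signal of 1 probe set each of Pde7a, Pde2a, Pde4d and Pde4a, as log2(signal + 51), by projected circadian time in hours, with points for profiles and bars for the mean ± SD of 3 profiles. Pde7a 1458218_s_at was higher at CT 10, 14 and 18 than at CT 2 and 6. Pde2a 1447707_s_at was lowest at CT 14, and Pde4d 1435280_at spread widely at CT 18 and 22.

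The Pde4 genes encode cAMP-specific phosphodiesterases that rolipram inhibits, and none passed the rhythm test in any of the 3 fits. Pde4d 1435280_at read 272, 286 and 334 at CT 2, and 409, 563 and 615 at CT 6. It read 482, 529 and 556 at CT 10, and 298, 302 and 456 at CT 14. It read 286, 432 and 619 at CT 18, and 208, 291 and 507 at CT 22. The means were highest at CT 6 and 10, but every neighbouring pair of times in the order of means overlapped. Its amplitude of 0.29 ± 0.12 came with an adjusted p of 0.22, and that within the first set was 0.37 ± 0.16 (adjusted p = 0.28). Over the first set its correlation with Pde8b 1435741_at was -0.67 (12 profiles).

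Pde4a 1421535_a_at had an amplitude of 0.11 ± 0.06 (adjusted p = 0.39). It read 289 to 523 in the 6 profiles of the second set and 412 to 464 in the 12 of the first, and the term for the second set was -0.24 ± 0.09 (adjusted p = 0.035). Pde4b had amplitudes of 0.11 ± 0.05 in 1444731_at and 0.03 ± 0.06 in 1422474_at (adjusted p = 0.22 and 0.89). Pde10a, which cleaves both messengers and is known from the striatum, had amplitudes of 0.16 ± 0.11, 0.08 ± 0.08 and 0.07 ± 0.13 in 1419389_at, 1432490_a_at and 1439618_at (adjusted p = 0.49, 0.73 and 0.91). Pde10a 1419389_at was lowest, at 186, in 78h replicate 2, and read 315 to 612 elsewhere. For these genes a rhythm was not detectable with 3 profiles per circadian time.

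Comparisons within 1 array set tested single steps of the day. CT 14 minus CT 2, early projected night minus early projected day, lies within the first set. Here 5 of the 19 phosphodiesterase probe sets passed in limma, 2 higher and 3 lower at CT 14, against 6.84% of all probe sets. Pde7a 1458218_s_at was higher by 0.49 ± 0.10 (adjusted p = 0.015) and Pde8a 1418406_at by 0.34 ± 0.08 (adjusted p = 0.023). Pde8b 1435741_at was lower, at -0.64 ± 0.13 (adjusted p = 0.016), and the 3 profiles of CT 14 (988 to 1374) lay below those of CT 2 (1850 to 1878). Pde2a was lower by 1447707_s_at, at -0.36 ± 0.09 (adjusted p = 0.031), and by 1447708_x_at, at -0.39 ± 0.10 (adjusted p = 0.044). The remaining Pde2a probe set, 1452202_at, had -0.13 ± 0.12 and was not called (adjusted p = 0.59). Nor was Pde8a 1418407_at, at 0.07 ± 0.12 (adjusted p = 0.77). This probe set read only 44.2 to 62.1 at CT 2 and 48.3 to 68.8 at CT 14. These signals lie below 189, the mean signal asked of a tested probe set. At so dim a signal the comparison cannot tell whether Pde8a transcript changed, and it does not bear on the call of 1418406_at. The other tested Pde7a probe sets had 0.11 to 0.28 and were not called (adjusted p = 0.11 to 0.60). Pde8b 1437989_at had a difference of -0.69 ± 0.20 and missed the threshold (adjusted p = 0.064). The median difference was 0.08 for the 19 and 0.02 for all probe sets. In 4 of the 19, none of them called, the sign turned in at least 1 repeat with another setting or 1 profile left out. These calls rest on 3 profiles a time: the count was 0 to 6 when 1 profile of the first set was left out, and 0 without 38h replicate 1, without 62h replicate 1 or without 50h replicate 2. It was 1 without 74h replicate 1, 2 without the average of 50h replicate 1 with 74h replicate 2, and 3 without that of 38h replicate 2 with 62h replicate 2.

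CT 18 minus CT 10 lies within the second set. None of the 19 passed in limma, against 5.0% of all probe sets, and 3 had an unadjusted p under the threshold of 0.05. Pde8b had the largest positive differences, 0.55 ± 0.13 in 1435741_at (adjusted p = 0.051) and 0.60 ± 0.19 in 1437989_at (adjusted p = 0.12). All 3 profiles of CT 18 lay above all 3 of CT 10 in both probe sets, at 1068 to 1409 for CT 18 and 790 to 888 for CT 10 in 1435741_at. Pde8b 1435741_at passed without the average of 54h replicate 1 with 78h replicate 1 (0.65 ± 0.11, adjusted p = 0.048). The third, Pde8a 1418407_at, had -0.61 ± 0.26 (adjusted p = 0.22) and -0.89 ± 0.18 without 54h replicate 2 (adjusted p = 0.032). Pde8a 1418406_at had 0.07 ± 0.12 and Pde7a 1458218_s_at -0.11 ± 0.10 (adjusted p = 0.77 and 0.57). In 7 of the 19 the sign turned in at least 1 repeat. The Gapdh ratio of 0.0386 and the highest muscle and liver sums lie at CT 18. Without 78h replicate 2, the array with that ratio, 0 of the 19 passed, against 6.0% of all probe sets. The part of RNA quality and of other tissues in these differences was not tested.

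**Figure D4:**
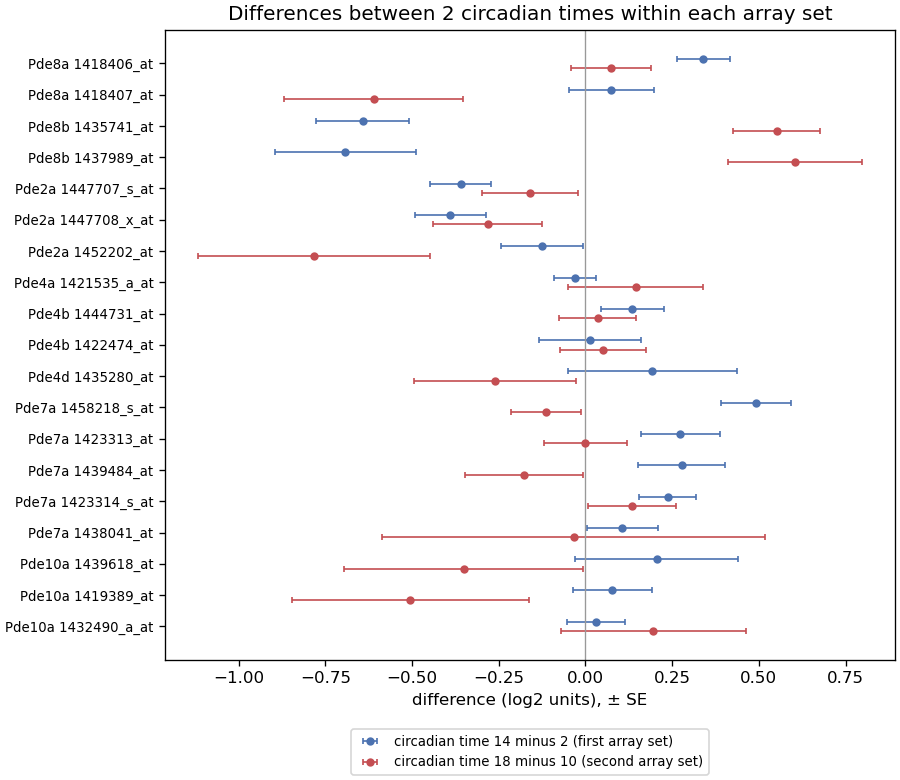
Difference in log2(signal + 51), with its SE, of each tested phosphodiesterase probe set between CT 14 and CT 2 within the first array set and between CT 18 and CT 10 within the second. Pde8b was at -0.64 and -0.69 in the first comparison and at 0.55 and 0.60 in the second, while Pde7a 1458218_s_at was at 0.49 and -0.11.

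The 2 cycles in darkness gave no call that told them apart. With circadian time as a factor, 0 of the 19 differed between the second and the first cycle over 13 profiles that belong to 1 cycle, against 0% of all probe sets. At an unadjusted p under 0.05 there were 3 of the 19 and 2174 of all 27022. The 3 were Pde4d 1435280_at at 0.48 ± 0.15, Pde10a 1439618_at at -0.42 ± 0.15 and Pde8b 1437989_at at -0.27 ± 0.12 (adjusted p = 0.61, 0.61 and 0.62). The shape of the rhythm differed between cycles in 0 of 19 in limma, against 0% of all, with 1 of 19 and 530 of all at an unadjusted p under 0.05.

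Probe sets of 1 gene disagreed between the array sets. Pde8a 1418407_at read 390 to 1023 on the second array set, with a median of 840, and 31.6 to 68.8 on the first, with a median of 48.8. On the same arrays its partner 1418406_at read 1279 to 1662 on the second set and 1101 to 1682 on the first. The arrays of both sets thus did not overlap in 1418407_at and overlapped in 1418406_at. The term for the second set was 2.96 ± 0.14 log2 units for 1418407_at (adjusted p = 4.5e-11), and 60 of the 27022 probe sets had a term at least as high. For 1418406_at it was 0.00 ± 0.07 (adjusted p = 0.97). The 24 h amplitude of 1418407_at was 1.08 ± 0.41 over all profiles (adjusted p = 0.18), 0.25 ± 0.08 with the block (adjusted p = 0.10) and 0.14 ± 0.07 within the first set (adjusted p = 0.36).

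Pde7a 1438041_at went the other way. It read 0 to 132 on the second array set, with a median of 9.39 and 3 arrays listed at 0, and 217 to 320 on the first. The term for the second set was -2.08 ± 0.26 (adjusted p = 5.4e-06), and 102 probe sets had a term at least as low. With an offset of 1 in place of 51 the terms were 3.85 for Pde8a 1418407_at and -4.90 for Pde7a 1438041_at, so their size depends on the offset. For Pde7a 1423313_at the term was -0.44 ± 0.08, for 1423314_s_at -0.31 ± 0.07 and for 1458218_s_at 0.00 ± 0.07 (adjusted p = 2e-04, 0.0010 and 0.99). Both Pde8b probe sets were lower in the second set, at -0.34 ± 0.09 and -0.42 ± 0.14 (adjusted p = 0.0063 and 0.022). Without the 4 profiles with an Acta1 signal over 1000, which carry muscle transcript, the terms were 3.26 for Pde8a 1418407_at and -2.68 for Pde7a 1438041_at.

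**Figure D5:**
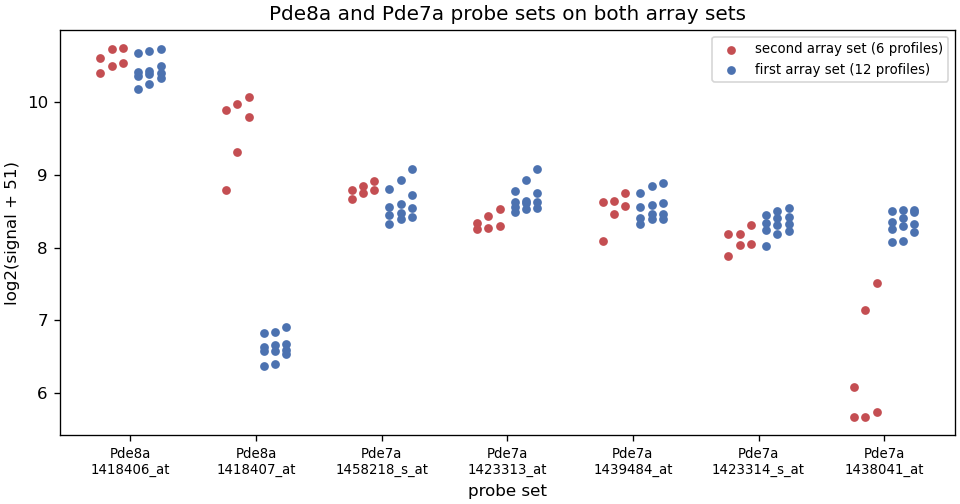
Signal of the 2 Pde8a and the 5 tested Pde7a probe sets, as log2(signal + 51), with the 6 profiles of the second array set left of the 12 of the first for each probe set. Pde8a 1418407_at was higher and Pde7a 1438041_at lower in the second set without overlap, while 1418406_at and 1458218_s_at overlapped.

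Genes whose profile was most like that of a called probe set were found by Pearson correlation over the 18 profiles after subtraction of array set means, among 13865 other genes. For Pde8b 1435741_at these were Rassf8 (r = 0.95), Mtmr11 (0.95) and Ninl (0.95), with 24 h peaks at CT 23.0, 23.5 and 24. For Pde8b 1437989_at they were Rassf8 (0.93), Mtmr11 (0.91) and Cdk2ap1 (0.91). For Pde8a 1418406_at they were Foxk2 (0.89), Hmgcs1 (0.88), an enzyme of cholesterol synthesis, and Baz1b (0.87), with peaks at CT 14, 16.4 and 15.8. Of these, Baz1b did not pass the 24 h test in limma (adjusted p = 0.091). For Pde7a 1458218_s_at they were Ctps (0.91), Rnaseh2b (0.89) and Nop56 (0.89). For 1423314_s_at they were Igk (0.85), Cct8l1 (0.84) and Adal (0.83). Igk, Cct8l1 and Adal did not pass the 24 h test in limma (adjusted p = 0.30, 0.10 and 0.57). These are the highest of many correlations over profiles that share 6 circadian times, and they describe likeness of profile alone.

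Around the phosphodiesterases, other genes of cAMP signalling were counted by their brightest tested probe set. By the same rule 11.2% of all 13873 genes passed over 18 profiles, 16.7% with the block and 11.2% within the first set, and their median amplitude was 0.12, and 0.09 with the block. The lists were not tested against all genes. Of 14 tested other genes with a Pde symbol, 2 passed over 18 profiles, 3 with the block and 2 within the first set, shares near those of all genes. Among the 14 are Pde6d, Pde6g, Pde6h and Pde12, which do not themselves cleave cyclic nucleotides, and none of these passed. Pde5a, which cleaves cGMP, had an amplitude of 0.33 ± 0.04 and a peak at CT 23.2 (adjusted p = 0.00063). Pde7b, the relative of Pde7a, had 0.24 ± 0.06 with a peak at CT 9.1 (adjusted p = 0.030, and 0.20 within the first set), and Pde1b passed with the block at 0.20 ± 0.04 with a peak at CT 5.8 (adjusted p = 0.0035). Of these 14, 0 were higher and 1 lower at CT 18 than at CT 10, and 0 higher and 1 lower at CT 14 than at CT 2, where 4.74% and 7.57% of all genes were called. The median amplitude over the 14 was 0.11, and 0.09 with the block.

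Upstream of cAMP, 3 of 10 tested genes for the ACTH receptor and adenylyl cyclases passed over 18 profiles, 4 with the block and 3 within the first set, beside 11.2%, 16.7% and 11.2% of all genes. Mc2r, the ACTH receptor, had 0.24 ± 0.04 with a peak at CT 0.4 (adjusted p = 0.0014), and Mrap, which carries that receptor to the cell surface, 0.48 ± 0.08 with a peak at CT 22.1 (adjusted p = 0.0027). Adcy9, an adenylyl cyclase, had 0.19 ± 0.05 with a peak at CT 7.4 (adjusted p = 0.045, and 0.13 within the first set). Downstream, 5 of 8 tested protein kinase A subunits and inhibitors passed over 18 profiles, 4 with the block and 4 within the first set. Of all genes 11.2%, 16.7% and 11.2% passed in these fits. The median amplitude over 18 profiles was 0.14 for this list, against 0.12 for all genes. Prkar2b, a regulatory subunit, had 0.34 ± 0.05 with a peak at CT 15.1 (adjusted p = 0.0011). Prkar1b, another regulatory subunit, peaked at CT 19.7 (0.21 ± 0.05, adjusted p = 0.018) and the inhibitor Pkig at CT 2.8 (0.12 ± 0.03, adjusted p = 0.022). The peaks of the named genes were thus spread over the day.

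Of 11 tested anchoring and partner proteins, which hold kinase and phosphodiesterase at 1 place in the cell, 3 passed over 18 profiles, 2 with the block and 4 within the first set, beside 11.2%, 16.7% and 11.2% of all genes. Akap13 had 0.25 ± 0.03 with a peak at CT 11.2 (adjusted p = 0.00056), Akap7 0.18 ± 0.03 with a peak at CT 5.4 (adjusted p = 0.0095) and Pde4dip 0.23 ± 0.06 with a peak at CT 16.0 (adjusted p = 0.045). The Pde4dip call was lost with the block (adjusted p = 0.086) and within the first set (adjusted p = 0.20). Of 10 tested CREB and NR4A genes, which respond to cAMP in the nucleus, 3 passed over 18 profiles, 4 with the block and 2 within the first set, beside 11.2%, 16.7% and 11.2% of all genes. Nr4a1 had 0.68 ± 0.15 with a peak at CT 9.4 (adjusted p = 0.022, and 0.26 within the first set), Crtc3 0.13 ± 0.03 with a peak at CT 2.0 (adjusted p = 0.022) and Nr4a3 0.27 ± 0.06 with a peak at CT 12.9 (adjusted p = 0.027). Of 8 tested genes listed with the guanylyl cyclases and cGMP kinases, 1 passed in each fit, a share near that of all genes. It was Npr3, a receptor that clears natriuretic peptides (0.38 ± 0.09, peak at CT 3.4, adjusted p = 0.026). Npr3 is itself neither a guanylyl cyclase nor a cGMP kinase, and no tested gene of these kinds passed. Neither of 2 tested other cAMP effectors passed in any of the 3 fits.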

How the data were processed

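The values used were the probe set intensities of 24 Affymetrix mouse arrays that the authors deposited, on a linear scale. Their summarisation and scaling are not stated in the labels or files used. Medians per array of log2(intensity + 51) were 8.14 to 8.32, and the values were used without further normalization. The offset, 51.0, is the 10th percentile of all deposited intensity values, so differences of dim probe sets are understated. Probe sets below the 40th percentile of mean signal and 64 controls were left out. A single symbol was annotated for 34958 probe sets, several for 932, and 9211 were unlisted. Arrays give no read depth, and their number limits the precision.

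Tests used R 4.3.3 with the packages limma (version 3.58.1) and data.table (version 1.17.8), with a trend in the prior variance, and were tested on simulated data. Near-copy arrays (log2 ratio SD of 0.1 or less, signal of at least 50) were averaged. Array sets were split at a ThrX-3 signal of 300. The genes and the lists were chosen with earlier results of these data known. Named are all phosphodiesterase probe sets, at most 3 passing genes of lowest p per list, and the 3 most similar profiles. Alternatives were the offset, the filter, normalization, near-copies, the variance model, 1 probe set per gene, a replicate block, and fits with samples left out.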

Additional observations from a re-analysis of the deposited data

How the results depend on the processing

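Of the probe sets called in a rhythm fit, with or without the block, or in CT 14 minus 2, none turned its sign or moved its peak by over 6 h in any repeat. Of those not called, the sign turned in at least 1 repeat in 7 of 19 for CT 18 minus 10 and 4 for CT 14 minus 2, and the peak moved by over 6 h in 3 over 18 profiles and 5 with the block. Of the counts of phosphodiesterase calls given in the report 115 repeats stayed within 1.5 times, 8 rose and 19 fell. The rhythm count of 4 was 3 with the filter at the 60th percentile or with 1 probe set per gene, and 4 in every fit that left out 1 profile, with 1750 to 3369 calls over all probe sets. Without replicate 1 and without replicate 2 it was 0 (34 and 191 over all), and with the block 1 in each (249 and 962 over all), each with 12 arrays. All 24 arrays taken as independent gave 4 with 7382 over all, and leaving out the profiles with muscle transcript 4 with 1484. The blocked count of 5 was 3 with the filter at the 60th percentile (fewer probe sets tested), 3 with 1 probe set per gene (2461 over all), 10 with 24 arrays (8542 over all) and 2 to 6 when 1 profile was left out. The count of 6 within the first set was 11 with 24 arrays (6938 over all) and 2 to 7 when 1 profile was left out (1482 to 3020 over all). CT 18 minus 10 gave 1 call with 4 times the offset and 1 with quantile normalization, both Pde8b 1435741_at, 2 with 24 arrays (5534 over all), 773 over all with no filter, and 0 to 1 when 1 profile was left out (0 to 2747 over all). It could not be fitted without the profiles with muscle transcript, as too few remained. CT 14 minus 2 gave 8 with 24 arrays (5197 over all) and 0 to 6 when 1 profile was left out (775 to 2078 over all). The count for cycles was 0 in each repeat. That for array sets, whose alternatives were chosen after seeing the data, was 7 with either offset and without 78h replicate 2, and 6 without the profiles with muscle transcript. Apart from sample number, the cause of these changes was not tested. Whether replicate numbers pair the samples cannot be told. Of 66 pairs of time points 17 had a correlation of same-numbered deviations over 0.1 (range -0.51 to 0.50). Near-copies were kept in these correlations, and arrays shared between time points move them by themselves. The replicate block gave 4 calls (1885 over all), and 5 beside the array set.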

Other observations

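Of the 9 phosphodiesterase probe sets too dim to be tested, 4 belong to Pde4b, 2 to Pde7a, 2 to Pde10a and 1 to Pde4d. Their mean signals were 29.6 to 175. Pde10a 1419390_at read 85.04 to 145 on the second array set and 51.4 to 84.96 on the first, a dim signal without overlap between the array sets.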
